A study of Homo sapiens with 12 samples.

Results

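MEIS1, MYC, MYB, SOX4, KIT, FLT3 and CD34 are 7 genes of blood stem cells and early progenitors that acute myeloid leukaemia cells often keep active. H3K4me2, dimethylation of lysine 4 of histone H3, was read around them from lists of enriched intervals (peaks). Each gene was taken with its body and 100 kb on both sides of its canonical start site, from GENCODE release 44 on the genome build GRCh38. These are 7 of 19951 protein-coding genes. Their windows held 94 peaks with DMSO, from a list of 65172, 88 with ATRA (of 66385), 85 with Corin (of 73997) and 107 with both drugs (of 83969). Peaks of different lists that overlap or touch were merged into regions, and 107 of 84577 regions lay in the windows.

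The cells were U-937, a human leukaemia line of the monocytic lineage, and all groups are this 1 line, so they show no spread between lines. They were kept for 24 hours in DMSO, the vehicle, in all-trans retinoic acid (ATRA) at 0.1 µM, in Corin at 0.1 µM, or in both drugs at 0.1 µM each. Corin is a synthetic inhibitor of the CoREST complex, where it blocks the demethylase LSD1 and the histone deacetylases. Chromatin was immunoprecipitated for H3K4me2 and sequenced, and each treatment has 2 H3K4me2 libraries and 1 input. The deposited files are 1 pooled peak list per treatment. The spread between replicates is therefore unknown, no test across treatments was possible, and every difference given here is a difference between 4 lists. Shares carry 95% Wilson intervals and fragment counts 95% Poisson intervals, and both cover counting error only.

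H3K4me2 marks active and poised promoters and enhancers, and LSD1 is one of the enzymes that remove it. MEIS1 and MYB are transcription factors that keep progenitors self-renewing, MYC drives growth and division, and SOX4 is a developmental factor that can cooperate with leukaemia oncogenes. KIT and FLT3 are receptor tyrosine kinases for stem cell factor and FLT3 ligand, both of which promote survival and proliferation of progenitors, and CD34 is the surface glycoprotein by which stem and progenitor cells are sorted. Retinoic acid is known for driving myeloid leukaemia cells to differentiate.

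The label of the cells was checked against defining genes. In the DMSO list a peak lay over the start site of 8 of 10 monocytic and myeloid genes (SPI1, CEBPA, CD33, LYZ, CSF1R, FCER1G, TYROBP and ITGAM, but not MPO or CD14), 0 of 4 erythroid genes and 0 of 3 epithelial genes. The lists differ in depth. The deposited fold and p of each peak were solved for whole fragments, which gave H3K4me2 depths of 1.02 (ATRA), 1.1 (Corin) and 1.2 (both drugs) relative to DMSO, and median summits of 39, 47, 40 and 45 fragments in the DMSO, ATRA, Corin and ATRA+Corin lists. Fragment counts given below are those at the summit of the strongest peak of a region. They are not scaled for depth, include background, and are to be read beside these medians, which are higher in the lists with ATRA. Fold over input orders the lists differently at some sites and is given for some sites only. The lists with more peaks were thus also the deeper ones, and the part of depth in each difference was not tested. Values at equal depth also required a recomputed −log10 p of at least 5, so threshold and depth change together in them. They are given for some results only.

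The 7 genes kept most of their marked sites under every treatment, and the combination list held more regions around them than the other lists. Regions with a peak numbered 69, 69, 68 and 89 in the DMSO, ATRA, Corin and ATRA+Corin lists. The length under peaks summed to 121 kb with DMSO, 134 kb with ATRA, 144 kb with Corin and 161 kb with both drugs. Relative to DMSO these lengths were 1.11, 1.19 and 1.33 times as large, against 1.14, 1.29 and 1.48 times for the whole genome. The summed length was thus greater than with DMSO in each drug list, by a smaller ratio than the genome's. Single genes differed from the sum: MYC was at 0.985 times its DMSO length with ATRA and KIT at 0.947 times with Corin, while MEIS1 (1.72) and FLT3 (1.49) were above the genome's ratio with both drugs. Of the 107 regions, 55 (51.4%) were held by all 4 lists, and the share over all regions of the genome was 51.2%. These 55 had a median width of 2040 bp and included 12 of the 13 regions that cover an annotated start site, of a member or of a non-coding or neighbouring gene.

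**Figure D1:**
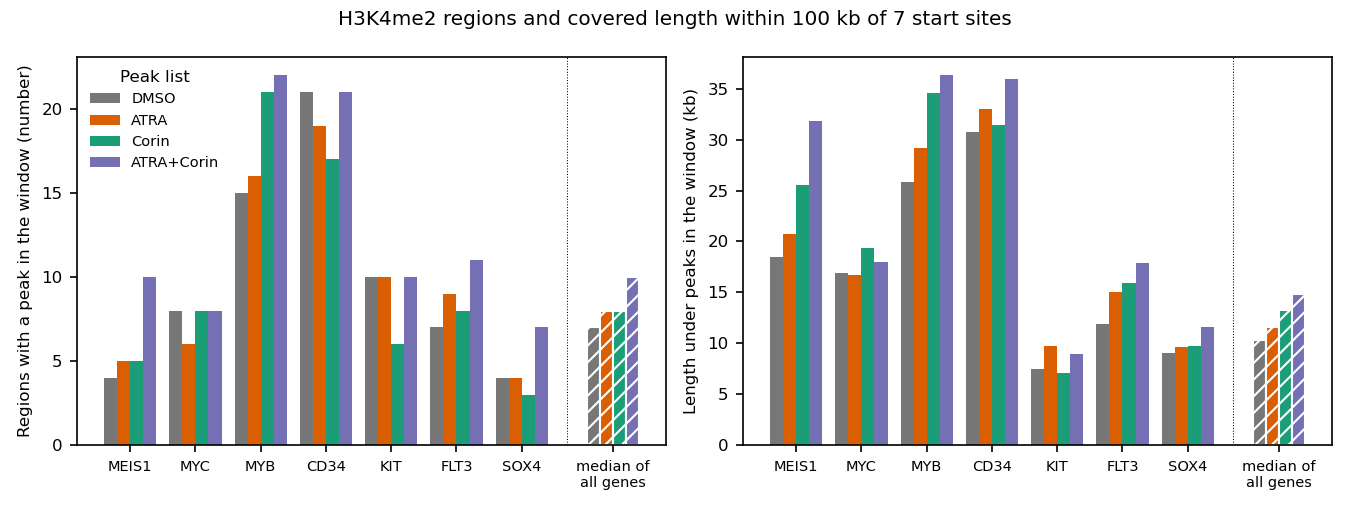
Number of regions with a peak (left) and length under peaks in kb (right) in the window of each gene, with 1 bar per peak list and hatched bars for the median over all 19951 protein-coding genes. MEIS1 rises from 4 to 10 regions and from 18.5 to 31.8 kb between the DMSO and ATRA+Corin lists, while MYC holds 8 regions in both.

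The genes differed in how much mark they carried, as the plot of regions and covered length shows. CD34 and MYB had the most, with 21 and 15 regions in the DMSO list, and MEIS1 and SOX4 the fewest, with 4 each; the median protein-coding gene had 7. In length the DMSO order was CD34 (30.7 kb), MYB (25.8 kb), MEIS1 (18.5 kb), MYC (16.9 kb), FLT3 (11.9 kb), SOX4 (9.07 kb) and KIT (7.51 kb), against a median of 10.3 kb. Without replicate values it is unknown which neighbours in this order differ beyond their spread. MEIS1 thus combined few regions with much length, since its mark lay in wide domains, and KIT combined 10 regions with the shortest length.

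Gained regions are those with a peak in the treated list and none in the reference list, and lost regions the reverse. For ATRA against DMSO, 9 of the 78 regions in either list were gained (11.5%, 6.19 to 20.5%), where 16.4% of all regions of the genome were, and 9 were lost (11.5%, 6.19 to 20.5%), where 7.58% were. For Corin against DMSO, 12 of 81 were gained (14.8%, 8.68 to 24.1%) against 22.4% genome-wide, and 13 were lost (16.0%, 9.63 to 25.5%) against 7.46%. For both drugs against DMSO, 28 of 97 were gained (28.9%, 20.8 to 38.6%) against 34.9%, and 8 were lost (8.25%, 4.24 to 15.4%) against 4.55%. Gains at these genes were thus somewhat below the genome's share in all 3 drug lists and losses above it, and only the Corin losses had an interval that left out the genome's share. By distance, 8 of the 9 ATRA losses, 10 of the 13 Corin losses and 7 of the 8 combination losses were over 50 kb from the start site. These counts overlap, since the 7 regions held by the DMSO list alone are losses in each contrast. The share of all window regions that lay as far out is not given beside them. With peaks within 1 kb merged the lost shares were 7.14% (ATRA), 13.3% (Corin) and 4.48% (both drugs), against 6.13%, 6.46% and 3.67% of all regions. The ATRA and combination losses thus lay near the genome's share there. With windows of 50 kb the lost shares were 2.08%, 7.55% and 1.56%, against 7.58%, 7.46% and 4.55% of all regions. For Corin the lost share was 10.0% (4 of 40 regions) with windows of 10 kb and 12.1% (4 of 33) in the gene bodies. With a −log10 q of at least 5 required in every list, ATRA gained 25% against 18.8% of the genome's regions and Corin lost 5.17% against 6.17%, both in the opposite order.

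When the combination was set against each single drug, additions dominated. Against ATRA, 25 of 94 regions were gained (26.6%, 18.7 to 36.3%) against 28.4% of all regions, and 5 were lost (5.32%, 2.29 to 11.9%) against 4.97%. Against Corin, 27 of 95 were gained (28.4%, 20.3 to 38.2%) against 24.0%, and 6 were lost (6.32%, 2.93 to 13.1%) against 6.59%. The intervals of all 4 shares held the genome's share. When each list was reduced to the same number of its strongest peaks, the combination gained 16.2% and lost 15.0% against ATRA (15.5% and 10.8% genome-wide). With a −log10 q of at least 5 in every list it gained 12.9% (6.91 to 22.7%) against 19.4% genome-wide and lost 14.3% (7.95 to 24.3%) against 6.48%, so the order of gains and losses turned and the interval of the losses left out the genome's share. All contrasts of the combination use the same ATRA+Corin list, and the drug contrasts share the DMSO list, so they are not independent.

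**Figure D2:**
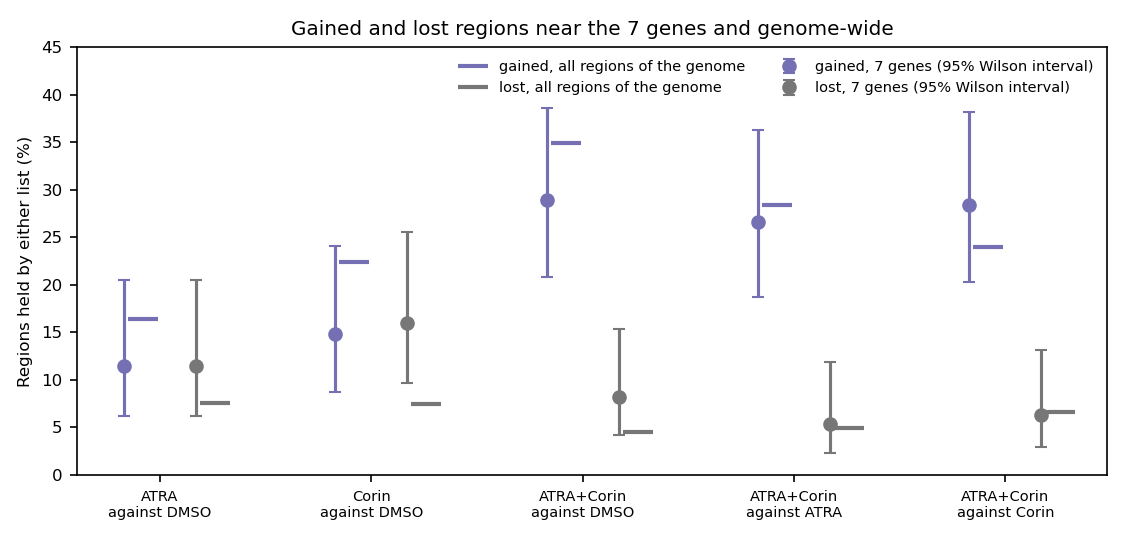
Percent of the regions held by either list that were gained or lost in each contrast, for the windows of the 7 genes (points with 95% Wilson intervals, counting error only) and for all regions of the genome (horizontal dashes). The gained share is 28.9% for ATRA+Corin against DMSO, beside 34.9% genome-wide, and the lost share for Corin against DMSO is 16.0%, beside 7.46%.

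The plot of gained and lost shares shows the same values with their intervals. Gained regions were narrow and weak. The 28 gained with both drugs had a median width of 402 bp and a median −log10 q of 3.93 (q as the authors' peak caller gave it), against 25.1 for the 61 regions shared with DMSO, and 9 of the 28 reached a −log10 q of 5. None of them covered an annotated start site, and 5 lay within 1 kb of a DMSO peak. Lost regions were not counted by their distance to a kept peak. The 7 regions held by the DMSO list alone were 171 to 326 bp wide with a −log10 q of 0.877 to 6.25, and they made up 6.54% of the regions against 2.2% of the genome's. The 20 regions held by the ATRA+Corin list alone, 18.7% against 16.3% of the genome's, were 179 to 666 bp wide with a −log10 q of 1.95 to 12.3. With lists of equal length, the combination gained 16.9% and lost 18.1% against DMSO (21.3% and 9.45% genome-wide), so the excess of gains over losses at these genes did not hold there. At equal depth it gained 24.1% and lost 10.1% (29.0% and 4.81% genome-wide).

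Gene by gene, the balance of gained and lost regions in the ATRA list was positive for 3 of 7 genes and negative for 2, and 44.5% and 16.9% of all genes were so. In the Corin list it was positive for 3 and negative for 3, against 57.6% and 12.6%. With both drugs it was positive for 4 (MEIS1, MYB, FLT3 and SOX4), 0 for the other 3 and negative for none, against 74.4% and 5.28%. With lists of equal length it was positive for 3 (MEIS1 4, MYB 2 and FLT3 2), 0 for SOX4 and negative for 3 (MYC -1, CD34 -4 and KIT -4). The share of all genes was not computed at equal length, so these counts cannot be set against the genome. For the combination against ATRA it was positive for 6 and negative for none, against 70.5% and 6.12%, and against Corin it was likewise positive for 6 and negative for none, against 61.9% and 10.2%.

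**Figure D3:**
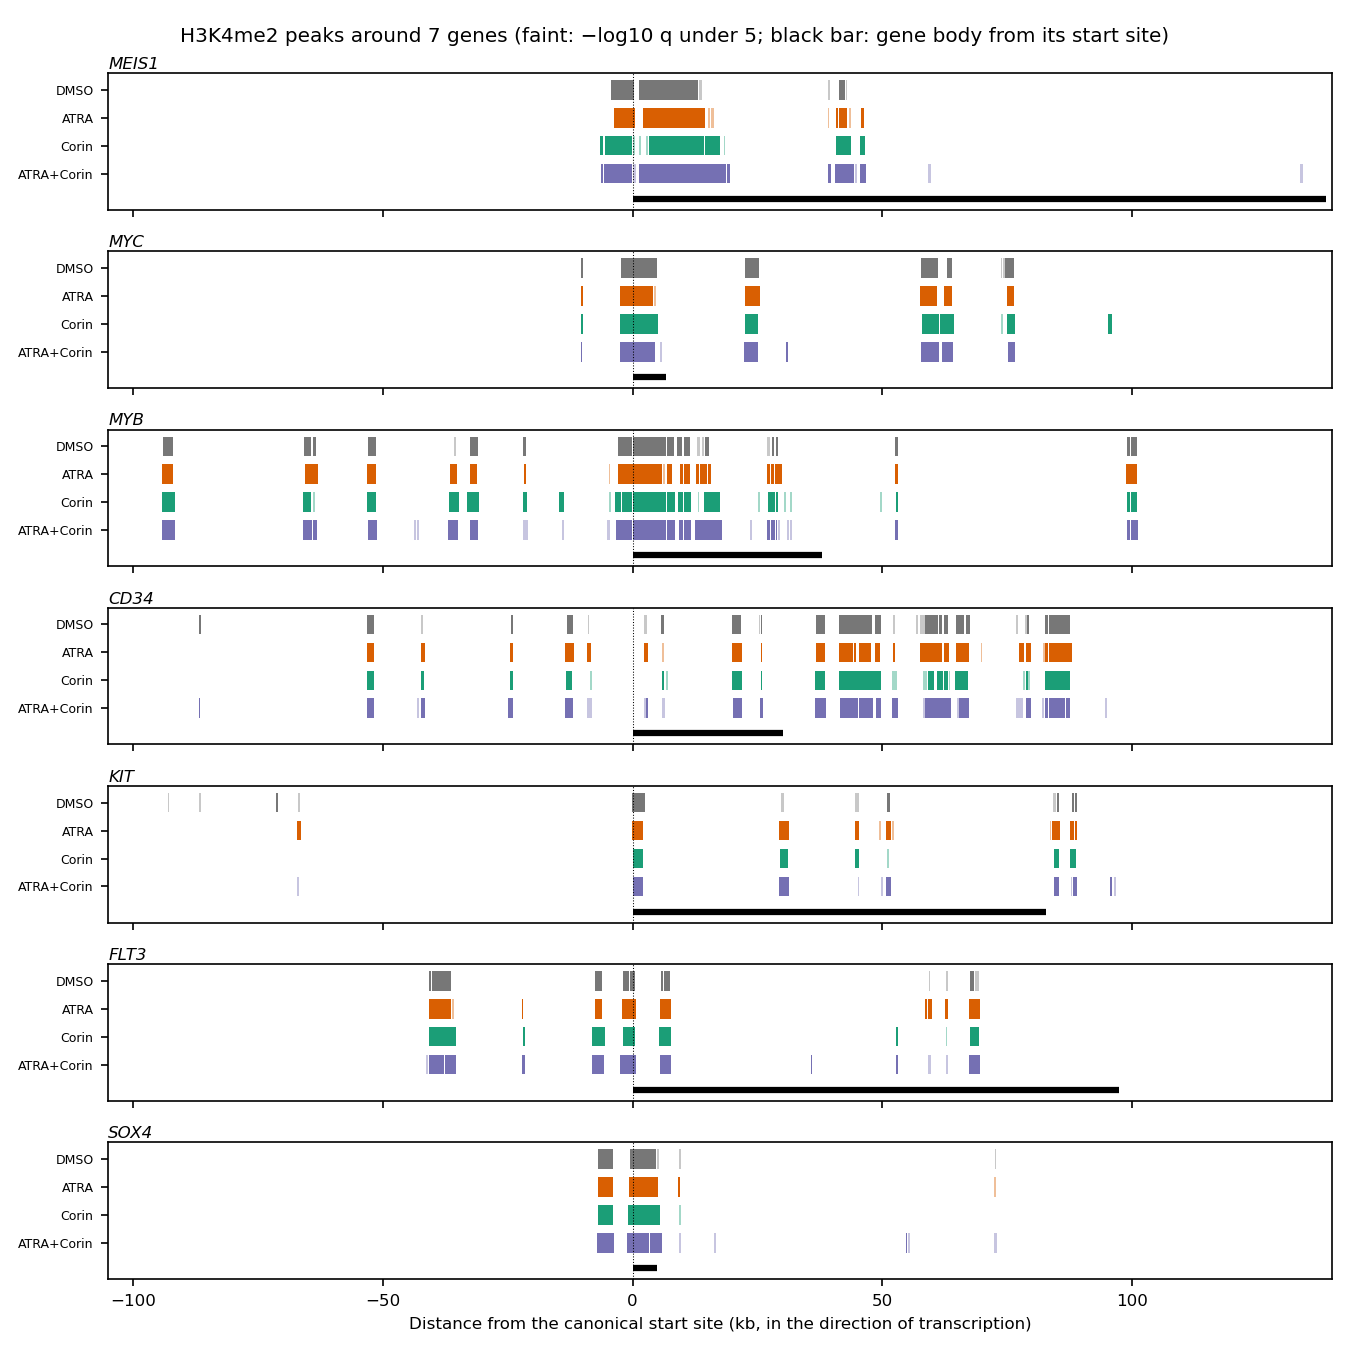
Peaks of the 4 lists around the canonical start site of each gene, in kb in the direction of transcription, with 1 row of blocks per list, faint blocks for peaks with a −log10 q under 5 and a black bar for the gene body. The sites held by all lists form columns through the rows, and the 3 DMSO blocks upstream of KIT from -93.1 to -71.1 kb have no counterpart in the drug lists.

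The start sites themselves were marked in most of the genes. A peak lay within 1 kb of the canonical start site of 6 of the 7 genes in each list, where 61.3 to 62.3% of all protein-coding start sites had one. The single base of the start site was under a peak for 5 genes, 6, 3 and 3 in the DMSO, ATRA, Corin and ATRA+Corin lists. Over all genes these shares were 47.3%, 48.1%, 38.0% and 38.0%, so the lower coverage in the Corin lists was seen genome-wide as well. The gaps were small. MEIS1 ended 113 bp short of its start site in the Corin list and 137 bp short in the ATRA+Corin list, KIT began 1 and 25 bp past it, and MYB began 69 and 2 bp past it, after 6 bp in the DMSO list. MYC, FLT3 and SOX4 were covered at the start site in all 4 lists. CD34 was the exception, with no peak at its canonical start site in any list.

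**Figure D4:**
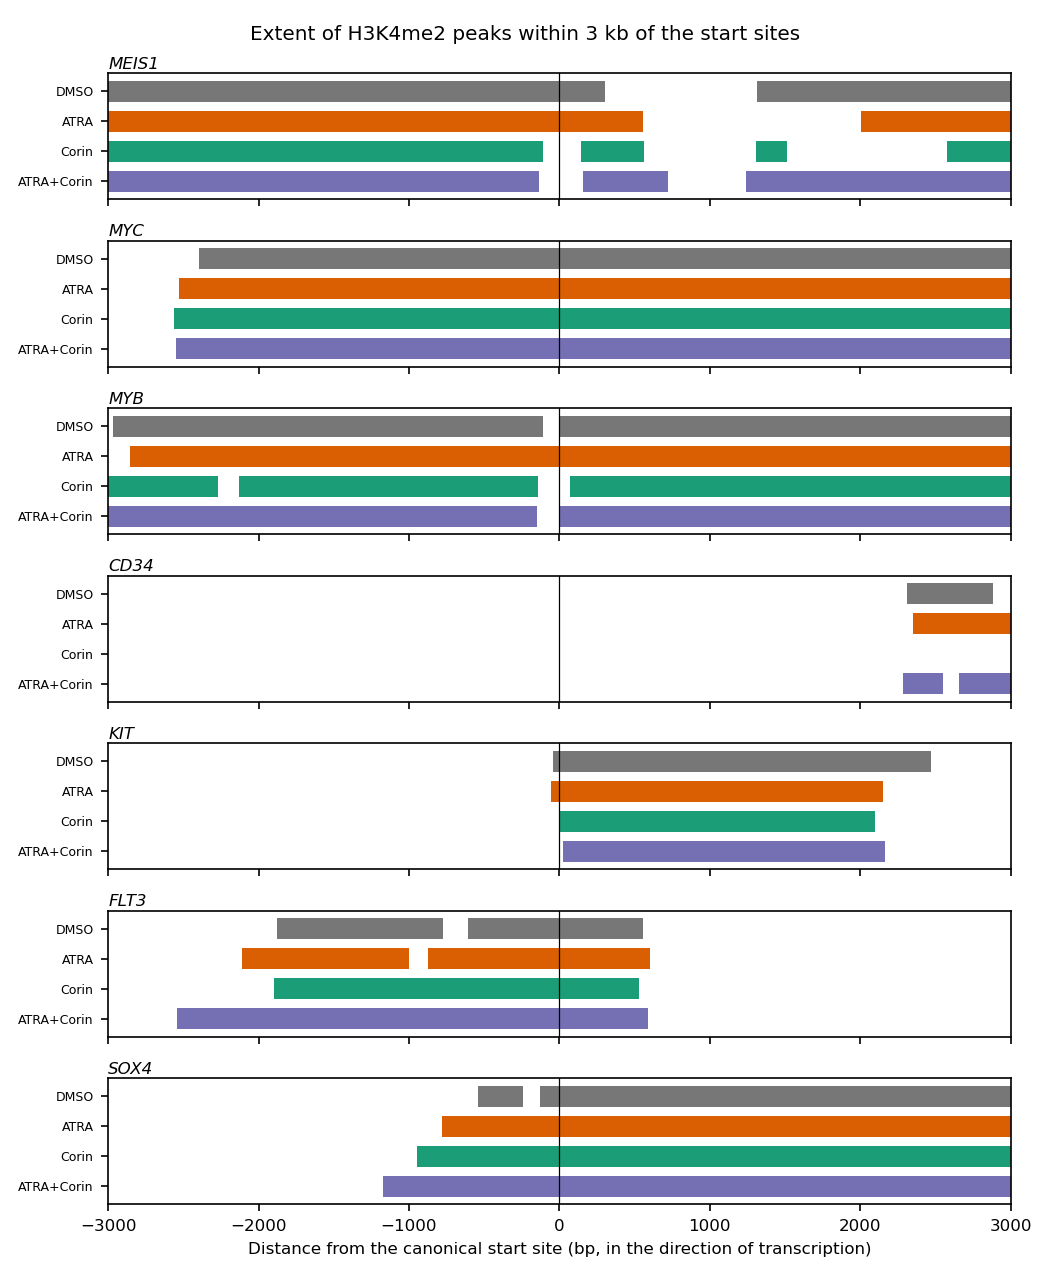
Extent of the peaks within 3 kb of the canonical start site (black line, 0 bp) of each gene, in bp in the direction of transcription, with 1 row per list. The start site of MEIS1 lies in an open gap in the Corin and ATRA+Corin lists and under a peak in the DMSO and ATRA lists, and that of MYC is covered in all 4.

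The plot of peak extents shows where each gap fell. The promoter sequences of MEIS1, MYB and FLT3 are shown because they span an opened gap, a gap present in 3 lists and no gap. Each is the 250 bases before the start site, read in the direction of transcription, from RefSeq on GRCh38, in which 6 of the 7 genes were matched. Capitals mark the bases under no ATRA+Corin peak.
MEIS1 promoter, chr2:66434875-66435124, plus strand: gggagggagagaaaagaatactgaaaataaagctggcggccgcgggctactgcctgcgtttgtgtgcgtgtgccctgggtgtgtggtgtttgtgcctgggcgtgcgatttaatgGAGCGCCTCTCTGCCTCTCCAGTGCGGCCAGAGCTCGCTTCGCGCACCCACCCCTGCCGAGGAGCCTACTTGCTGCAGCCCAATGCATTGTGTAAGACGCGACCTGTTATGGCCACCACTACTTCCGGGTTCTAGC
MYB promoter, chr6:135181058-135181307, plus strand: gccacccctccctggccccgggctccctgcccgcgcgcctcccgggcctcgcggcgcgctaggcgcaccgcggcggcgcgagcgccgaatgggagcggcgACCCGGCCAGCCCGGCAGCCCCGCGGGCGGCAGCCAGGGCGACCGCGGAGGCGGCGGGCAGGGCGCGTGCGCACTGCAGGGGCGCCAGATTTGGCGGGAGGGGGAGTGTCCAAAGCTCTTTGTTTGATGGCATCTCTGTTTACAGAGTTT
FLT3 promoter, chr13:28100577-28100826, minus strand: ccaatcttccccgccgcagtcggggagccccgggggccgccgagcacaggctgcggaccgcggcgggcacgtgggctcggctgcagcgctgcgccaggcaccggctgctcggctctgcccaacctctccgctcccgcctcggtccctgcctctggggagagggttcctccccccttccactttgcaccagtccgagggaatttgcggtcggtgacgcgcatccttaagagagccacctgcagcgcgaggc

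In the MEIS1 promoter the uncovered stretch next to the start site was 0 bases with DMSO and with ATRA, 112 with Corin and 136 with both drugs. In the MYB promoter it was 108, 0, 141 and 150 bases in the same order, so the ATRA list was the only one to span it. The FLT3 promoter had 0 uncovered bases in each list. The dinucleotide CpG occurred 16 times in the MEIS1 promoter, 34 times in that of MYB and 26 times in that of FLT3, where the median over 15315 promoters was 17. KIT had 34, CD34 14 and SOX4 8. The genes uncovered in both lists with Corin (MEIS1, MYB, KIT and CD34) had 14 to 34 and the covered FLT3 and SOX4 had 26 and 8, so their CpG counts overlapped.

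MEIS1, the homeobox factor that works with HOXA9 in leukaemia, had a covered length of 18.5 kb with DMSO, 20.7 kb with ATRA, 25.5 kb with Corin and 31.8 kb with both. These are 1.12, 1.38 and 1.72 times the DMSO length, the highest ratios of the 7 genes for Corin and for both drugs, while with ATRA the ratios of KIT (1.29), FLT3 (1.25) and MYB (1.13) were higher. The median ratios over the 18358 genes with a DMSO peak were 1.1, 1.24 and 1.38. Its regions numbered 4, 5, 5 and 10. Against DMSO, both drugs together gained 6 regions and lost none, a balance above that of 81.7% of all genes and below that of 13.1%. This balance stayed between 2 and 9 under every alternative that was run.

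The mark of MEIS1 sat in 2 wide domains on both sides of the start site and in a cluster in the gene body near 40 kb. The downstream domain, chr2:66436368-66453776, also covers the start site of the antisense transcript MEIS1-AS2. Its widest peak was 11723 bp long, 12441 bp, 11178 bp and 17409 bp in the DMSO, ATRA, Corin and ATRA+Corin lists. The last of these ended 18651 bp past the start site, where the widest DMSO peak ended 13037 bp past it. In the other lists the domain was split into several peaks, and the farthest ended at 13805 bp with DMSO, 16234 bp with ATRA and 18497 bp with Corin. The Corin peaks thus reached nearly as far as the combination's single peak. Peaks of this domain covered 12.3, 13.3, 15.1 and 17.4 kb in the DMSO, ATRA, Corin and ATRA+Corin lists. The upstream domain reached from -4366, -3663, -5081 and -5827 bp in the DMSO, ATRA, Corin and ATRA+Corin lists. Within the lists, the peak next to the start site was stronger than 92.9% of DMSO peaks and 93.5% of ATRA peaks, but than 83.1% of Corin peaks and 66.3% of ATRA+Corin peaks. Its summit held 167 fragments with DMSO, 230 with ATRA, 104 with Corin and 108 with both, although the Corin and ATRA+Corin libraries were the deeper ones. These summits lay at -2852, -2849, -2834 and -1013 bp in the same order, so the combination count was read at another place. The peak upstream of MEIS1 was therefore wider and its summit lower in both lists with Corin.

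The strongest region that MEIS1 gained lay 45.4 to 46.7 kb past the start site, in an intron. It had no DMSO peak, and a region without a peak in a list has no value in that list. Its summit held 31 fragments in the ATRA list (21.1 to 44), 30 in the Corin list (20.2 to 42.8) and 76 in the ATRA+Corin list (59.9 to 95.1), with a −log10 q of 11.1, 6.21 and 30.8. The combination count exceeded both single-drug counts beyond the counting intervals, and by more than the depths of 1.02, 1.1 and 1.2. The region was chosen as the gain with the highest −log10 q in the combination list, so a high combination count was built into the choice. The intervals do not allow for that. The region next to it, chr2:66475635-66479486, was present in all lists with 43 fragments with DMSO, 59 with ATRA, 81 with Corin and 117 with both. A smaller region upstream, from -6.50 to -5.86 kb in an intron of the antisense gene MEIS1-AS3, had a peak in the Corin list (35 fragments) and the ATRA+Corin list (41 fragments) and in neither of the others. Of the other gained regions, 4 were held by the combination alone, with 14 to 30 fragments, and the farthest lay over an exon 134 kb past the start site. The region that Corin lost lay at 39.0 kb in an intron, where the DMSO, ATRA and ATRA+Corin summits held 16, 17 and 33 fragments.

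The 300 bases around the ATRA+Corin summit of the strongest gained region are shown for FLT3 and KIT, both receptor genes whose strongest gain was held by the combination alone. They are read from the GRCh38 genome on the plus strand, the FLT3 window reaching past the end of its region, and capitals mark a match to the RUNX letters TGTGGT.
FLT3 intron, chr13:28064700-28064999: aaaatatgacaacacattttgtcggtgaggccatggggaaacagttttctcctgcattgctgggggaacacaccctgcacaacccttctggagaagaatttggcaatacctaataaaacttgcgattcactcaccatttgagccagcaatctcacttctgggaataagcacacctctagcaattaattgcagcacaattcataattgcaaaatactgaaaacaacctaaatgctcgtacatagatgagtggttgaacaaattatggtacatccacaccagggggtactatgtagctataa
KIT downstream, chr4:54753562-54753861: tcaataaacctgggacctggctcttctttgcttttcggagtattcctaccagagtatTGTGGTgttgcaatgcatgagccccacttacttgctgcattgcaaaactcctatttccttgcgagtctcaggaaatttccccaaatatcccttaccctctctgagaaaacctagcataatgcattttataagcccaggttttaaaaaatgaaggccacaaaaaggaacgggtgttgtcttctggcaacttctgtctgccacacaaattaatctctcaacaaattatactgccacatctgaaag

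The letters of 8 factor motifs were searched on both strands in these windows and in those of MYB, CD34 and SOX4. They were TGTGGT for RUNX factors, GAGGAAGT for PU.1-type ETS factors, AGATAA for the GATA family, TGACAG for MEIS factors, AACTGCC for MYB, CACGTG for the E-box, TGANTCA for the factor AP-1 and AGGTCA for the retinoid half-site, the last also as a direct repeat 1, 2 or 5 bases apart. None overlapped another match. RUNX letters occurred 1 time in the KIT window, at -93 bases from the summit, and 1 time in the MYB window, which also held 1 match to the MEIS letters. Over all 84574 windows of this length, 21.8% held the RUNX letters, 19.5% the MEIS letters and 22.2% the retinoid half-site. The windows of FLT3, CD34 and SOX4 held none of the 8. The FLT3 and KIT windows had 3 CpG each, where the median window had 4.

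MYC, the growth-driving transcription factor on chromosome 8, had the smallest ratio of covered length between the combination and DMSO lists among the 7 genes, at 1.06. It held 8 regions, 6, 8 and 8 in the DMSO, ATRA, Corin and ATRA+Corin lists, and 16.9, 16.7, 19.4 and 18.0 kb. The median ratio over all genes was 1.38. The start site lay under 1 wide peak in each list, 7178 bp with DMSO, 6635 bp with ATRA, 7650 bp with Corin and 7100 bp with both. At its summit were 162 fragments with DMSO, 284 with ATRA, 164 with Corin and 259 with both, so the lists with ATRA were the high ones at this peak, as they were for the median summit. The summit lay 2650, 2674 and 2617 bp past the start site in the first 3 lists and 761 bp past it in the combination list.

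The other sites of MYC lay downstream, toward and within the non-coding gene PVT1. A region at 22.3 to 25.4 kb held 119 fragments with DMSO, 169 with ATRA, 135 with Corin and 211 with both. The region over the start site of PVT1, 57.6 to 61.3 kb past that of MYC, held 167, 236, 127 and 191 fragments in the same order and was again highest in the ATRA list. Its fold over input was 28.2, 52.5, 15.8 and 23.9, so by fold the combination lay below DMSO. ATRA lost 2 regions, both in an intron of PVT1 near 74 kb, with a DMSO −log10 q of 3.18 and 3.32, and the combination lost the same 2. These ended at 74008 and 74413 bp, just before a region held by all lists that began at 74590 bp. Corin gained 1 region at 95.2 kb in PVT1 (−log10 q 6.54, 24 fragments), which the combination list did not hold. The combination alone gained 2 weak regions, 5.55 kb past the start site over an exon (16 fragments) and 30.7 kb past it outside genes (28 fragments).

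MYB, the factor required for blood progenitors to multiply, gained the most regions with Corin and with both drugs, holding 15, 16, 21 and 22 in the DMSO, ATRA, Corin and ATRA+Corin lists. The length rose from 25.8 kb to 29.2, 34.6 and 36.3 kb. MYB lost no region against DMSO in any drug list, while 1, 6 and 7 were gained. The ATRA gain lay at -5.05 kb with a −log10 q of 3.15. The Corin gains reached a −log10 q of 7.36, and those of the combination reached 4.75, at 31.5 kb in an intron. When every list was held to a −log10 q of 5, the balance of MYB was 1 with ATRA, 2 with Corin and 0 with both. The start-site region reached from -3487 to 6713 bp. Its strongest peak held 193 fragments with DMSO, 224 with ATRA, 80 with Corin and 158 with both, the Corin list being the low one. These summits lay at -288, 2390, -1051 and 2407 bp in the same order, so different places are compared. In the peak directly downstream of the start site, the DMSO summit at 2387 bp held 163 fragments and the Corin summit at 5086 bp held 68.

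Upstream of MYB, 5 sites outside genes between -65.9 and -21.0 kb were held by all lists. The site from -36.9 to -34.8 kb (chr6:135144439-135146499) was among the weakest DMSO peaks, stronger than 7.46% of that list. It held 34 fragments with DMSO (23.5 to 47.5), 98 with ATRA (79.6 to 119), 64 with Corin (49.3 to 81.7) and 100 with both (81.4 to 122). Each drug list was above the DMSO interval, and the DMSO count fell outside all 3 of theirs. The intervals do not allow for the choice of this site, which was made after its values were seen. Its neighbour from -33.2 to -30.8 kb held 60 fragments with DMSO, 98 with ATRA, 58 with Corin and 74 with both. The fold over input of this neighbour was 8.96, 18.7, 3.02 and 12.3 in the same order. By fold the Corin list thus lay below DMSO. A site from -14.7 to -13.7 kb had a peak in the Corin list (26 fragments) and the ATRA+Corin list (51 fragments) and in neither other list. Its fold over input was 4.93 with Corin and 2.33 with both, and its −log10 q was 7.36 and 3.44. By enrichment over background the Corin peak was thus the stronger one. Within the gene, a region from 12.4 to 17.9 kb that covers the start site of the antisense gene MYB-AS1 held 60 fragments with DMSO (45.8 to 77.2), 92 with ATRA (74.2 to 113), 63 with Corin (48.4 to 80.6) and 149 with both (126 to 175).

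SOX4, an intronless developmental factor, had a compact pattern of 4, 4, 3 and 7 regions and 9.07, 9.6, 9.75 and 11.6 kb in the DMSO, ATRA, Corin and ATRA+Corin lists. The peak over its start site began at -130, -781, -944 and -1172 bp in the DMSO, ATRA, Corin and ATRA+Corin lists. It thus reached farther upstream in each drug list, although a separate DMSO peak lay directly upstream, from -542 to -245 bp. The summit counts of its region were 120, 129, 79 and 108 fragments, read at 1732, 1721, 924 and -338 bp. A second strong site from -7.07 to -3.82 kb held 138 fragments with DMSO, 156 with ATRA, 89 with Corin and 96 with both, with the lower counts in the Corin lists. The 3 gains of SOX4 were held by the combination alone, lay 16.3, 54.6 and 55.1 kb past the start site and had 22, 24 and 15 fragments. Only the one at 54.6 kb reached a −log10 q of 5 (5.81). Corin lost 1 weak region, over the start site of the non-coding gene CASC15 at 72.4 kb, where the DMSO, ATRA and ATRA+Corin summits held 13, 17 and 18 fragments.

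KIT, the receptor of stem cell factor, had the least covered length, with 7.51, 9.71, 7.11 and 8.93 kb in the 4 lists, and 10, 10, 6 and 10 regions. Its start-site peak was one-sided: it began at -42 bp in the DMSO list and -53 bp in the ATRA list, and 1 and 25 bp past the start site in the Corin and ATRA+Corin lists, and it ended 2094 to 2468 bp downstream. Its summit held 60, 94, 65 and 106 fragments in the DMSO, ATRA, Corin and ATRA+Corin lists, so the lists with ATRA were higher by this count. Its fold over input was 13.5, 21.6, 14.1 and 12.4 in the same order, so by enrichment the combination list was the lowest. KIT was also the gene with the most far upstream losses. The DMSO list alone held peaks at -93.1, -86.7 and -71.3 kb, with 20, 16 and 22 fragments and a −log10 q of 4.82, 2.7 and 6.25. Corin also lost a region at -67.3 kb (18 fragments with DMSO), which the ATRA list held with 28 fragments and the combination with 14.

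Within the body of KIT and just past it, 5 sites apart from the start site were held by all lists. The intron site at 29.4 to 31.2 kb held 18 fragments with DMSO, 48 with ATRA, 26 with Corin and 43 with both. Downstream of the gene, 2 sites at 84.0 to 85.6 kb and 87.5 to 88.9 kb held 30 to 60 fragments across the lists. The combination alone added a site at 95.5 to 96.0 kb (chr4:54753448-54753964) with 26 fragments and a −log10 q of 6.66. ATRA alone added 3 sites near existing ones, the strongest at 49.4 kb in an intron (18 fragments, −log10 q 4.84). With gains and losses at 3 each, KIT had a balance of 0 for the combination, but -2 at equal depth and -4 with lists of equal length.

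FLT3, the receptor mutated in many acute myeloid leukaemias, grew from 11.9 kb with DMSO to 15.0 kb with ATRA, 15.9 kb with Corin and 17.9 kb with both. Its regions numbered 7, 9, 8 and 11. Of its 12 regions, 5 have FLT3 as the nearest protein-coding start, 4 have URAD, which starts outside the window, and 3 have PAN3, the other coding gene that starts in it, so the values are shared with these neighbours. The peak over the FLT3 start site was 1164 bp wide, 1471 bp, 2427 bp and 3133 bp in the DMSO, ATRA, Corin and ATRA+Corin lists. Its summit, at -275, -271, -324 and -276 bp, held 113, 164, 85 and 136 fragments. Its fold over input was 9.99, 34, 13.1 and 26.3 in the same order. The upstream edge of this peak lay at -606 bp with DMSO, -871 bp with ATRA, -1898 bp with Corin and -2545 bp with both. In the DMSO and ATRA lists a separate peak lay directly upstream and reached -1880 and -2112 bp. The wider Corin peak thus ended near the edge of the separate DMSO peak. Peaks of the whole region covered 2.27 kb with DMSO, 2.59 kb with ATRA, 2.43 kb with Corin and 3.13 kb with both.

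FLT3 gained 4 regions with the combination and lost none. The strongest lay in an intron at 35.6 to 36.0 kb (chr13:28064596-28064955), was held by the combination alone and had 36 fragments (25.2 to 49.8) and a −log10 q of 12.3. An intron site at 52.7 to 53.2 kb was held by the Corin list (27 fragments) and the ATRA+Corin list (34 fragments). A site from -22.2 to -21.6 kb was held by all 3 drug lists with 23, 28 and 27 fragments and by the DMSO list not at all. ATRA alone held a site at 58.5 kb in an intron (22 fragments, −log10 q 7.38). Corin lost 1 region, at 59.2 kb in an intron, where the DMSO, ATRA and ATRA+Corin summits held 19, 38 and 21 fragments. Of the sites in all lists, the one from -8.23 to -5.62 kb held 145 fragments with DMSO, 225 with ATRA, 126 with Corin and 175 with both. The fold over input there was 32.2, 51.3, 12 and 14.5 in the same order. By fold both lists with Corin thus lay below DMSO. The balance of FLT3 with both drugs stayed between 2 and 4 under every alternative.

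CD34, the surface marker of stem and progenitor cells, had many regions and none at its canonical start site. Its regions numbered 21, 19, 17 and 21, and its length was 30.7, 33.0, 31.4 and 36.0 kb. The nearest peak lay 2308 bp past the start site, 2354 bp, 5826 bp and 2282 bp in the DMSO, ATRA, Corin and ATRA+Corin lists, with 20 to 40 fragments. A region over another annotated CD34 start, 19.9 to 21.9 kb downstream, was held by all lists with 60, 74, 68 and 83 fragments. The strongest region of the window lay 41.3 to 49.7 kb past the start site, beyond the gene, over the start of the microRNA host gene MIR29B2CHG, and held 249, 321, 229 and 296 fragments. This strongest site thus belongs by position to a neighbouring non-coding gene.

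Of the sites upstream of CD34, the one from -13.5 to -11.8 kb (chr1:207922955-207924614) held 70 fragments with DMSO (54.6 to 88.4), 73 with ATRA (57.2 to 91.8), 71 with Corin (55.5 to 89.6) and 142 with both (120 to 167). The combination count lay above the intervals of the other 3, which overlap. The fold over input at this site was 4.86 with DMSO, 10.3 with ATRA, 9.57 with Corin and 22.5 with both. By fold both single-drug lists thus also lay above DMSO. The site was chosen after its values were seen, and the intervals do not allow for that choice. The site from -25.0 to -23.9 kb held 32 fragments with DMSO (21.9 to 45.2), 66 with ATRA (51.0 to 84.0), 42 with Corin (30.3 to 56.8) and 95 with both (76.9 to 116), with the ATRA-treated lists high. CD34 lost 4 regions with ATRA, 5 with Corin and 3 with both, and gained 2, 1 and 3. The strongest loss with ATRA and with Corin was a site at -86.9 kb outside genes (31 fragments and a −log10 q of 5.41 with DMSO), which the combination list held with 34 fragments. The strongest loss with both drugs lay at 78.5 kb in an intron of MIR29B2CHG (20 fragments with DMSO, −log10 q 4.43). This loss, from 78523 to 78742 bp, lay between regions held by all lists, whose nearest edges were at 78470 and 78814 bp. The strongest gains lay at 69.7 kb with ATRA, 6.66 kb with Corin and 81.9 kb with both, with a −log10 q of 4.8, 4.54 and 4.57.

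Several genes on other chromosomes followed nearly the same covered length over the 4 lists, by the smallest Euclidean distance in kb. PLET1 was closest to MEIS1 (distance 0.906 kb), RSL24D1 to MYB (0.744 kb), SH3PXD2A to CD34 (1.56 kb), TCF7 to KIT (0.54 kb), FAM186B to FLT3 (0.581 kb) and SMURF2 to SOX4 (0.525 kb). DESI1 was among the closest to MYC (0.749 kb). The measure rests on 4 values per gene and on level as much as on pattern.

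The wider progenitor programme was read from 31 further genes, in groups of partners, blood stem cell factors, ligands, surface markers and self-renewal genes. Their balance of regions for both drugs against DMSO was positive for 26 and negative for 2, that is 83.9% and 6.45%, against 74.4% and 5.28% of all genes. For Corin 22 were positive and 3 negative, or 71.0% and 9.68%, against 57.6% and 12.6% of all genes. For ATRA 15 were positive and 5 negative, or 48.4% and 16.1%, against 44.5% and 16.9%. HOXA9, the partner of MEIS1, held 11 regions with DMSO and 16 with both drugs. RUNX1, a master factor of blood stem cells, held 36, 43, 51 and 57 regions in the DMSO, ATRA, Corin and ATRA+Corin lists. The ligand genes KITLG and FLT3LG held 1 and 16 regions with DMSO and 2 and 23 with both drugs. MAX, the partner of MYC, held 9, 10, 10 and 9 regions. CD96 and IKZF2 had no peak in any list.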

How the data were processed

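H3K4me2 ChIP-seq was done on U-937 cells, with paired-end reads of 75 bp per the labels' protocols. Trimmomatic, Bowtie2, Picard and MACS2 and the build hg38 are named in the submitters' processing notes, while versions and the peak threshold are not given in the sources used here. The authors deposited 1 list per treatment, and the name of each describes an optimal set of peaks, H3K4me2 against input, that is reproducible by overlap. The deposited score is 10 times the −log10 p, capped at 1000. The deposited fold is a ratio over input at the summit, and the deposited −log10 p and −log10 q come from the same caller. All are the authors' own and were used within a list, apart from solving fold and −log10 p for whole fragments and background (pseudocount 1), which held for 99.77 to 99.99% of the peaks of a list. The summit is given as an offset. No peak ended past a chromosome of GRCh38.

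Peaks of the 4 lists that overlapped by 1 bp or touched were merged into regions on 23 chromosomes. Windows, start sites and places came from GENCODE release 44. Counts, shares with 95% Wilson intervals and covered lengths were computed in Python 3.11.15 (pandas 2.3.3, scipy 1.17.1), and the scripts were tested on simulated data. The replicate libraries of a treatment are not said to come from separate cultures. The members, gene lists, motifs and measures were chosen with earlier results of these data known. All 7 genes are named. The rule for their regions took the start-site region, the strongest region and, for each drug list, the strongest gained and the strongest lost region; further regions were chosen after their values were seen. Alternatives were a −log10 q of 5, equal list length, windows of 50 and 10 kb or the body, merging within 1 kb, single peaks, other start sites and, added after seeing the data, equal depth. The T and B cell markers and 1 sequence window are not reported here.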

Additional observations from a re-analysis of the deposited data

How the results depend on the processing

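Values are percents of regions unless said otherwise. Brackets after a percent hold the share over all regions of the genome under the same setting. With a −log10 q of at least 5 required in every list, ATRA against DMSO gained 25 (18.8) and lost 4.69 (4.35), and Corin lost 5.17 (6.17). There the combination gained 12.9 (19.4) and lost 14.3 (6.48) against ATRA, and gained 15.4 (18.8) against Corin. The balance of gained and lost regions turned to 4 for CD34 (ATRA against DMSO). It turned to -1 for MYB, -2 for CD34 and -1 for FLT3 (combination against ATRA), and to -2 for MYB (combination against Corin). With lists of equal length, the combination gained 16.9 (21.3) and lost 18.1 (9.45) against DMSO. Against ATRA it gained 16.2 (15.5) and lost 15.0 (10.8), and CD34 turned to -1. With windows of 50 kb, 10 kb and the gene body alone, ATRA lost 2.08, 2.70 and 3.23 and the combination 1.56, 2.17 and 2.56 against DMSO, and Corin lost 7.55, 10.0 and 12.1. The genome's shares do not depend on the window and stay at 7.58 (ATRA), 4.55 (combination) and 7.46 (Corin). With peaks within 1 kb merged, ATRA gained 3.57 (14.5) and the combination 19.4 (27.8) against DMSO, and the combination lost 1.54 (4.19) against ATRA. With a −log10 q of 5 required only on the side with the peak, ATRA gained 4.62 (8.97) and lost 3.08 (2), and Corin lost 3.12 (2.47). The combination then gained 12.7 (19.2) and lost 1.41 (1.5) against DMSO. It gained 11.0 (12.8) and lost 1.37 (2.15) against ATRA, and gained 11.3 (9.29) and lost 1.41 (1.64) against Corin. With single peaks overlapped by 50%, 22.0, 24.3 and 39.5 were gained in the ATRA, Corin and combination lists, and no genome share was computed. Start sites with a peak within 1 kb numbered 6 in the Corin list and 6 in the combination list, and 7 and 6 when any annotated start of the gene counted. At equal depth, chosen after seeing the data, the combination gained 17.9 (21.6) against ATRA. The cause of these moves was not tested, apart from the fewer peaks or shorter windows that the settings bring. The remaining 95 planned and 16 added values of the main comparisons stayed in their counting interval or, for start sites and for all ratios of covered length, within 1.5 times. The balances of single genes were less stable. Over all settings 165 stayed the same or within 1.5 times, 214 moved and 6 reversed. At equal depth 22 of them moved and 13 did not. No paired analysis was possible because each treatment has 1 pooled peak list with no values per replicate; leaving out a replicate could not be run for the same reason. The lowest −log10 p in the lists was 2.02 to 2.05, and signal under that limit is not seen here.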
